A study of Gallus gallus with 6 samples.

Results

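The genes of 6 EGF family ligands and 4 ERBB receptors were followed in chicken primary myoblasts, muscle precursor cells from leg muscle grown in culture, with and without overexpression of ANKRD9. The 10 genes were taken by symbol from a table of 24433 genes, and all 10 were found. They are the ligand genes HBEGF, TGFA, BTC, AREG, EREG and NRG1 and the receptor genes EGFR, ERBB2, ERBB3 and ERBB4. In 3 libraries the cells overexpressed ANKRD9, an ankyrin repeat protein, and in 3 they held the pcDNA3.1 vector without an insert. Polyadenylated RNA was sequenced, and the question of the study was the role of ANKRD9 in the metabolism of inosine monophosphate in these cells. The sources used here do not give how the construct was delivered, how long the cells were kept afterwards, or the age and breed of the birds.

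EGF family ligands are made as membrane-bound precursors that proteases such as ADAM17 cut free. A released ligand binds an ERBB receptor, the receptors pair with themselves or with each other, and the paired kinases switch on the RAS-MAPK and PI3K-AKT cascades. HBEGF, TGFA, BTC, AREG and EREG bind EGFR, and HBEGF, BTC and EREG also bind ERBB4, whereas NRG1 binds ERBB3 and ERBB4. ERBB2 binds none of these ligands and serves as a partner for the other receptors, and ERBB3 has little kinase activity of its own. In skeletal muscle NRG1 from nerve and its receptors are known for their part in muscle spindles and in the synapse between nerve and muscle, and EGFR activity in mammalian myoblasts is known to fall as differentiation begins.

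The 6 libraries held between 16158627 and 26310089 whole reads. Levels are given as FPKM, fragments per length of gene and depth of library, and a value after ± is the SD over the 3 libraries of a group unless marked as SE. The 11685 genes whose mean reached 1 FPKM were tested with limma. ANKRD9 itself ran from 90.5 to 104 FPKM with its construct and from 8.16 to 10.1 with the vector, 10.7-fold higher (limma, adjusted p = 5.44e-06). The myoblast genes MYF5, MYOD1 and MYOG had means of 296, 199 and 153 FPKM in the vector libraries. These markers of the labelled cell type were thus present. Of the other listed muscle markers, PAX3 and ITGA7 had means of only 0.646 and 1.06 FPKM over all libraries, and MYMK and MYH1 had no match. MYOD1 fell 1.72-fold with ANKRD9, to 116 ± 11.3 FPKM, while MYF5 rose 1.25-fold to 370 ± 22.3 FPKM (limma, adjusted p = 0.000312 and 0.0052). MYOG did not pass (adjusted p = 0.292, limma). Several fibroblast genes were also high, led by DCN with a mean of 694 FPKM over all libraries. DCN did not pass (limma, adjusted p = 0.150). Other fibroblast markers were low, with means of 3.05 FPKM for LUM and 0.00737 FPKM for TCF21. The summed FPKM of 11 fibroblast markers ran from 1746 to 1890 with ANKRD9 and from 2169 to 2222 with the vector. Nothing in the labels says that libraries of one group were grown as separate cultures, so the tests measure the spread among these libraries, which may be technical.

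HBEGF was the highest of the 10 genes and rose with ANKRD9, TGFA and ERBB2 rose by less, and EGFR fell. These are 4 of the 5 members whose mean reached 1 FPKM, where 36.0% of all tested genes passed in either direction (limma, adjusted p under 0.05), 16.3% upward and 19.8% downward. The 3 values of one group lay clear of the 3 of the other for the same 4 of 5, against 50.6% of all tested genes (23.7% higher and 26.9% lower with ANKRD9). With shares of that size in the background, the count says little about the family, and the values of the single genes follow. In whole cultures, fewer cells of a type and less RNA per cell cannot be told apart. BTC did not pass, and AREG, EREG, NRG1, ERBB3 and ERBB4 had means under 1 FPKM and were not tested.

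**Figure D1:**
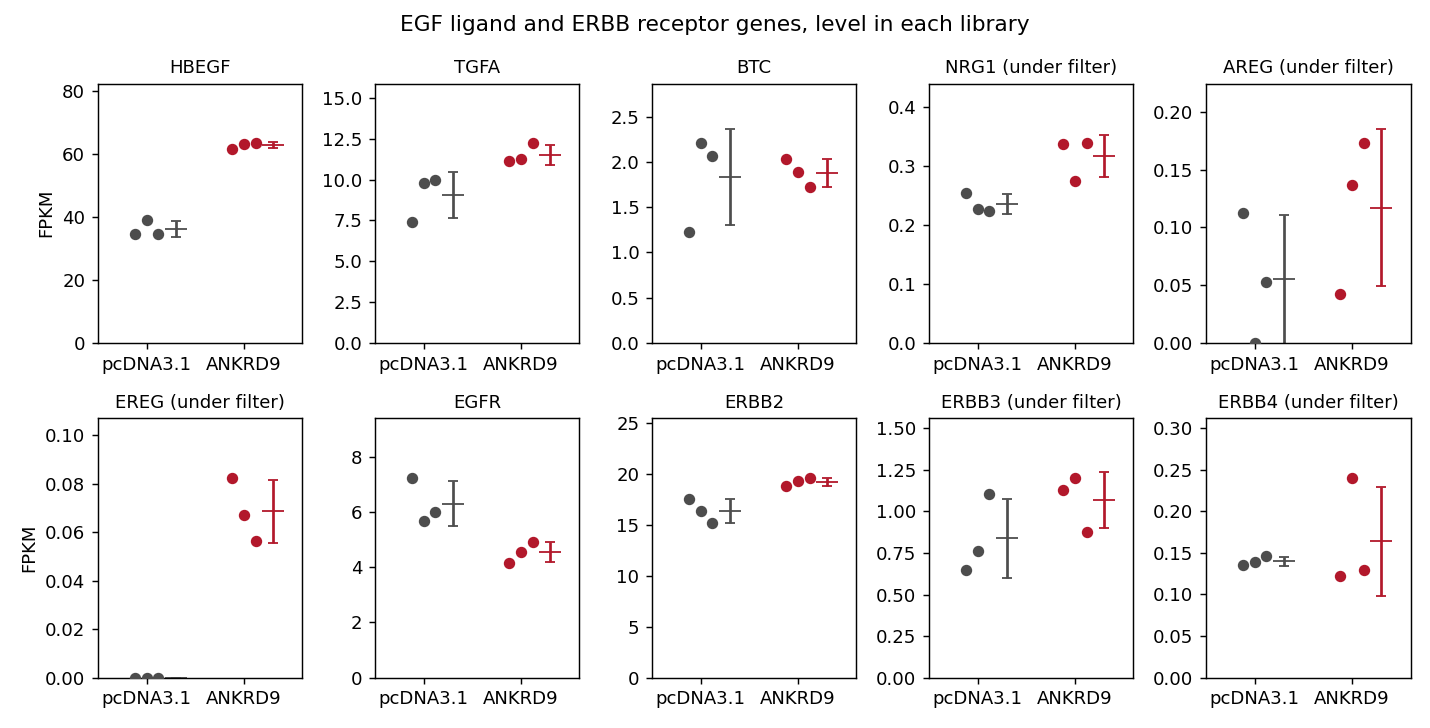
FPKM (vertical axes, each starting at 0) of the 6 ligand genes and then the 4 receptor genes in the 3 pcDNA3.1 and the 3 ANKRD9 libraries; points are libraries, and the mark beside them is the mean with the SD (cut off at 0 for AREG). HBEGF stands at 61.7 to 63.4 FPKM with ANKRD9 against 34.6 to 39.2 with the vector, and EGFR at 4.16 to 4.90 against 5.69 to 7.23.

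Ordered by mean level, HBEGF at 49.5 FPKM was followed by ERBB2 at 17.8, TGFA at 10.3, EGFR at 5.43, BTC at 1.86 and ERBB3 at 0.953 FPKM. Below these came NRG1 at 0.276, ERBB4 at 0.152, AREG at 0.0862 and EREG at 0.0343 FPKM. Neighbours in this order had separate ranges over the 6 libraries down to NRG1, while NRG1 overlapped ERBB4, ERBB4 overlapped AREG, and AREG overlapped EREG. HBEGF lay at the 93.0th percentile of all genes in the table by mean FPKM, ERBB2 at the 81.9th and EREG at the 28.3rd. Levels set between genes rest on the gene lengths of the table, which run from 816 bases for HBEGF to 11534 for EGFR. In whole reads the pair was much closer, with 565 to 1344 reads on HBEGF and 861 to 1664 on EGFR.

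HBEGF encodes heparin-binding EGF-like growth factor, a ligand of EGFR and ERBB4 that in humans is also the receptor of diphtheria toxin. It stood at 61.7, 63.3 and 63.4 FPKM in the ANKRD9 libraries and at 34.7, 39.2 and 34.6 FPKM in the vector libraries. The ANKRD9 libraries were within 2 FPKM of each other, and the lowest of them was far above the highest vector library. The level rose 1.74-fold, from 36.2 ± 2.61 to 62.8 ± 0.959 FPKM, a difference of 0.78 ± 0.05 in log2(FPKM + 1) (SE; limma, adjusted p = 0.000157). By that difference HBEGF was number 81 among the 1900 genes that rose. Without any one library the difference lay between 0.75 and 0.84 and kept its call, with an adjusted p of at most 0.00182 (limma). HBEGF (gene 395654) lies on chromosome 13: 2174226-2180336, minus strand, on GRCg6a, and overlaps no other gene of the table.

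TGFA, the gene of transforming growth factor alpha, another EGFR ligand, was the second ligand by level. Its values were 11.1, 11.2 and 12.2 with ANKRD9 and 7.41, 9.80 and 9.98 FPKM with the vector, on 165 to 331 reads. The groups did not overlap, but vector replicate 1 was well below the other vector libraries, and the gap between the nearest libraries of the groups was small. TGFA rose 1.27-fold, from 9.06 ± 1.44 to 11.5 ± 0.602 FPKM, a log2 difference of 0.33 ± 0.10 (SE; limma, adjusted p = 0.0433). The call is narrow: it was lost without any one of the ANKRD9 libraries (adjusted p between 0.0817 and 0.117, limma) and without a filter on low values (adjusted p = 0.106), and without vector replicate 1 the difference was 0.20 (adjusted p = 0.0348). TGFA (gene 414743) lies on chromosome 22: 4155372-4172438, minus strand. A gene on the opposite strand overlaps it with a mean of 2.33 reads.

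BTC, the gene of betacellulin, did not differ beyond the spread between replicates. It stood at 2.03, 1.89 and 1.72 with ANKRD9 and at 1.23, 2.20 and 2.07 FPKM with the vector, so the vector libraries spanned the whole range of the other group. The log2 difference was 0.04, with a 95% interval from -0.29 to 0.37 (limma, adjusted p = 0.843). Vector replicate 1 was again the lowest library, and without it the difference was -0.12 (adjusted p = 0.288, limma), so no direction can be given. BTC (gene 448833) lies on chromosome 4: 34616757-34622370, plus strand.

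The remaining ligand genes were low, and AREG and EREG were near the limit of detection. NRG1, the gene of neuregulin 1, stood at 0.336, 0.275 and 0.338 with ANKRD9 and at 0.254, 0.227 and 0.224 FPKM with the vector, on 39 to 78 reads. These groups did not overlap, and the mean was 1.35-fold higher with ANKRD9. In a fit of all genes with a value above 0, which called 17.0% of them, the difference in log2(FPKM + 1) was 0.09 (adjusted p = 0.105, limma). That scale understates differences at such low levels. AREG, the gene of amphiregulin, had 12 reads in the ANKRD9 libraries together and 6 in the vector libraries, with levels of 0.0420 to 0.173 and 0 to 0.112 FPKM that overlapped. EREG, the gene of epiregulin, had 2, 1 and 1 reads in the ANKRD9 libraries and 0 in each vector library, where 3 reads over the group would correspond to 0.0515 FPKM. EREG passed in the fit without a filter (adjusted p = 0.0141, limma), but on 4 reads in all, so no change is reported for it. A floor of this kind covers counting error only.

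EREG and AREG lie side by side on chromosome 4, at 44723741-44731613 and 44741666-44748282, together with EPGN, the gene of the EGFR ligand epigen, at 44697574-44709619, all on the plus strand. EPGN was the only one of the 5 other EGF family ligand genes to reach a mean of 1 FPKM. It stood at 1.41, 1.39 and 1.10 with ANKRD9 and 0.904, 0.711 and 1.03 FPKM with the vector, groups that were separate but close. The mean of EPGN was 1.47-fold higher with ANKRD9. Its difference of 0.29 in log2(FPKM + 1) did not pass (adjusted p = 0.0577, limma). EPGN did pass with voom on the recovered reads (0.61, adjusted p = 0.0109) and without ANKRD9 replicate 3 (adjusted p = 0.0485, limma). The voom value is on a log2 scale of reads without the added 1 FPKM, so 0.61 and 0.29 are on unlike scales. Its first 1224 bases overlap MTHFD2L on the same strand, which had a mean of 50.7 reads.

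Of the other 4 ligand genes, all under the filter, EGF had the clearest separation. EGF itself stood at 0.759, 0.827 and 0.729 with ANKRD9 and 0.547, 0.625 and 0.528 FPKM with the vector, 1.36-fold higher by group means. In the fit without a filter its difference of 0.18 in log2(FPKM + 1) did not pass (adjusted p = 0.0537, limma). The neuregulin genes NRG2, NRG3 and NRG4 had overlapping groups, and NRG4 was the highest of them at 0.812 ± 0.131 and 0.917 ± 0.267 FPKM. NRG2 had means of 0.116 and 0.0767 FPKM and NRG3 of 0.0573 and 0.0393 FPKM.

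EGFR, the receptor that HBEGF and TGFA bind, was lower with ANKRD9. Its values were 4.16, 4.57 and 4.90 with ANKRD9 and 7.23, 5.69 and 6.01 FPKM with the vector. All ANKRD9 libraries were below all vector libraries, and vector replicate 1 was the highest of the 6. EGFR fell 1.39-fold, from 6.31 ± 0.811 to 4.54 ± 0.369 FPKM, a log2 difference of -0.40 ± 0.09 (SE; limma, adjusted p = 0.0129). It was number 620 among the 2310 genes that fell. The call held without any one library (adjusted p from 0.0147 to 0.0458, limma), and without vector replicate 1 the difference was -0.31. EGFR (gene 396494) lies on chromosome 2: 51809290-51959527, minus strand, a span of 150 kb with no overlapping gene in the table.

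ERBB2, the partner receptor that binds no ligand of its own, was higher with ANKRD9. It stood at 18.8, 19.2 and 19.5 with ANKRD9 and at 17.5, 16.3 and 15.1 FPKM with the vector, on 1200 to 1912 reads. The groups were separate, with the ANKRD9 libraries close together and the vector libraries more spread. The rise was 1.18-fold, from 16.3 ± 1.19 to 19.2 ± 0.391 FPKM, a log2 difference of 0.22 ± 0.06 (SE; limma, adjusted p = 0.0192). The call was lost without ANKRD9 replicate 2, ANKRD9 replicate 3 or vector replicate 3 (adjusted p = 0.0625, 0.0573 and 0.0525, limma). ERBB2 (gene 426130) lies on chromosome 27: 7045500-7054434, plus strand, and its first 1292 bases overlap PGAP3 on the opposite strand. PGAP3 had means of 12.6 and 14.3 FPKM with ANKRD9 and the vector. Since the counting strand is not given, reads of the overlap cannot be assigned to either gene.

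**Figure D2:**
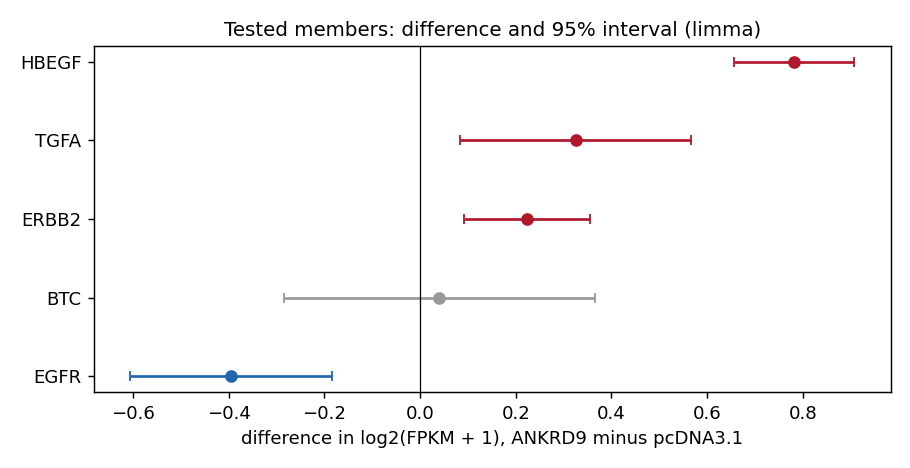
Difference in log2(FPKM + 1), ANKRD9 minus pcDNA3.1 (horizontal axis), for the 5 tested members; points are limma estimates from 3 against 3 libraries and bars their 95% intervals, in red for higher, blue for lower and grey for not passed. HBEGF is at 0.78 with an interval from 0.66 to 0.91, EGFR at -0.40 with one from -0.61 to -0.18, and that of BTC spans 0.

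The neuregulin receptor genes were low and did not separate. ERBB3 stood at 1.13, 1.20 and 0.875 with ANKRD9 and at 0.648, 0.763 and 1.10 FPKM with the vector, on 60 to 140 reads, so that vector replicate 3 lay within the ANKRD9 range. The mean of ERBB3 was 1.28-fold higher with ANKRD9, and in the fit without a filter its difference of 0.17 in log2(FPKM + 1) did not pass (adjusted p = 0.369, limma). ERBB4 stood at 0.122, 0.240 and 0.129 with ANKRD9 and at 0.135, 0.139 and 0.146 FPKM with the vector, on 27 to 42 reads, with ANKRD9 replicate 2 above all others. Its difference was 0.03 in the same fit (adjusted p = 0.716, limma).

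For single genes an exact two-sided permutation test of 3 libraries against 3 cannot go below p = 0.1. Every gene whose groups do not overlap reaches that smallest value, as 50.6% of all tested genes do, so the test adds nothing to the separation given above. Of the members, HBEGF, TGFA, EGFR and ERBB2 reached it, and so did NRG1 and EREG, which were under the filter. BTC gave an exact permutation p of 1.0.

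The make-up of the receptor transcripts differed between the groups. EGFR made up 17.2% to 19.3% of the summed receptor FPKM in the ANKRD9 libraries and 24.8% to 28.3% in the vector libraries, and ERBB2 made up 76.2% to 77.6% and 67.6% to 71.3%. The ratio of ERBB2 to EGFR, which does not depend on how libraries were scaled, was 4.51, 4.21 and 3.99 with ANKRD9 and 2.42, 2.87 and 2.52 with the vector. Shares and ratio do rest on the gene lengths, 3816 bases for ERBB2 and 11534 for EGFR. In whole reads EGFR was above ERBB2 in each vector library (1664, 1501 and 1463 against 1333, 1426 and 1218). With ANKRD9 it was below ERBB2 in each library (1282, 861 and 1099 against 1912, 1200 and 1450). The summed receptor FPKM itself overlapped between the groups, at 25.0 ± 0.681 and 23.6 ± 1.67 FPKM. On the ligand side HBEGF took 81.4% to 82.3% of the summed level with ANKRD9 and 73.7% to 79.4% with the vector. The summed ligand FPKM was 76.7 ± 1.32 and 47.4 ± 3.87. The ratio of HBEGF to EGFR ran from 12.9 to 14.8 with ANKRD9 and from 4.80 to 6.88 with the vector. These shares and ratios describe transcripts, and no test was run on them.

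**Figure D3:**
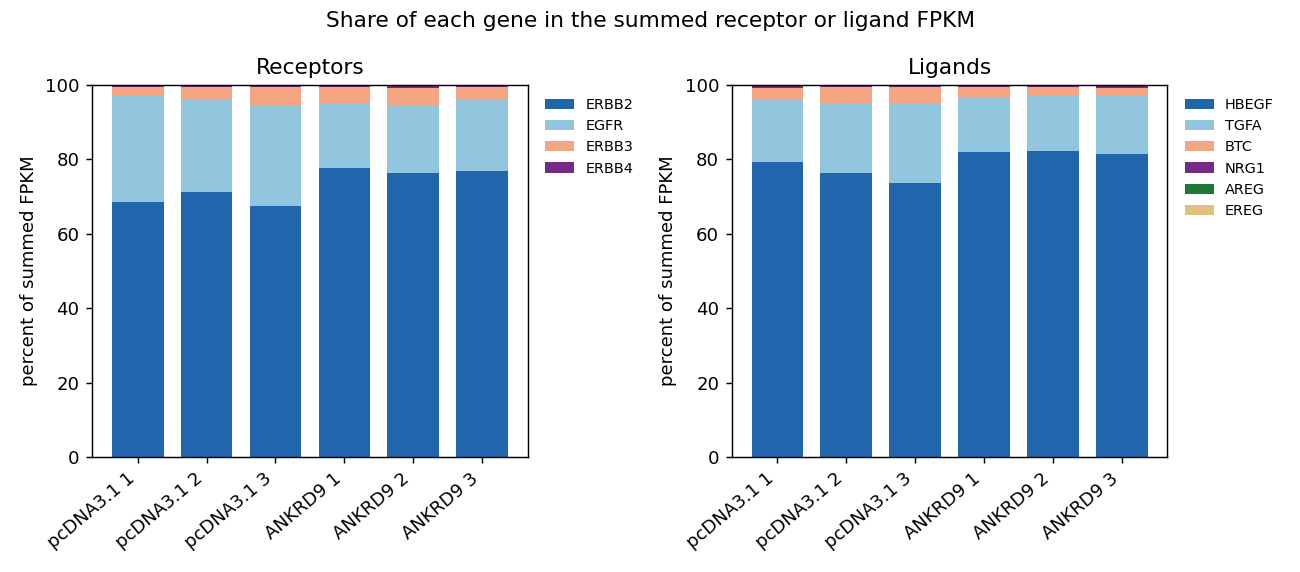
Share of each gene in the summed FPKM of the 4 receptor genes (left) and of the 6 ligand genes (right), in percent, for each library; stacked bars add to 100. The EGFR part shrinks from 24.8% to 28.3% in the vector libraries to 17.2% to 19.3% in the ANKRD9 libraries.

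Genes that act in the release of the ligands moved in both directions. Of 14 tested genes for proteases, their helpers and ligand partners, 3 rose and 3 fell, 42.9% in all beside 36.0% of the background, with a median log2 difference of -0.01 beside -0.01 over all tested genes. RHBDF2 and RHBDF1, which encode iRhom proteins that bring ADAM17 to the cell surface, rose 1.21-fold to 16.3 ± 0.0160 FPKM and 1.18-fold to 15.2 ± 0.619 FPKM (limma, adjusted p = 0.00570 and 0.0154). The protease genes BACE1 and ADAM19 fell 1.27-fold and 1.44-fold, to 27.9 ± 0.317 and 1.09 ± 0.0614 FPKM (limma, adjusted p = 0.00171 and 0.0181). ADAM17, named here after its values were seen, stood at 30.2 ± 0.961 and 29.7 ± 2.15 FPKM (limma, adjusted p = 0.734), and TIMP3, the highest gene of the list and an inhibitor of ADAM17, at 213 ± 27.1 and 202 ± 25.4 FPKM (adjusted p = 0.630). RHBDF1 and ADAM19 each lost their call without ANKRD9 replicate 2, ANKRD9 replicate 3 or vector replicate 3 (adjusted p between 0.0504 and 0.0636, limma). The number of genes that rose was 1 without ANKRD9 replicate 3 or vector replicate 3, and the number that fell was 1 without ANKRD9 replicate 2. Over all tested genes, fewer also rose in every fit without 1 library, and the share that rose or fell in each fit is not given here.

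Among 38 tested adaptors and effectors of the RAS-MAPK and PI3K-AKT cascades, 6 rose and 8 fell, 36.8% in all, close to the 36.0% of the background. The median log2 difference was -0.03. The scaffold gene KSR1 rose 1.31-fold to 8.44 ± 0.252 FPKM, the adaptor gene SHC2 1.35-fold from 7.45 ± 0.735 FPKM and the phospholipase gene PLCG1 1.28-fold to 6.99 ± 0.325 FPKM (limma, adjusted p = 0.00296, 0.00449 and 0.00511). HRAS, the highest gene of the list, stood at 97.7 ± 5.16 and 95.5 ± 7.30 FPKM (adjusted p = 0.716, limma). Without ANKRD9 replicate 2 the number that fell was 5, and the share of all tested genes that fell in that fit is not given here.

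Genes listed for feedback on ERBB receptors and the MAPK cascade, or for receptor turnover, included 11 that rose and 2 that fell among 31 tested. This was 41.9% in all beside 36.0% of the background, with a median log2 difference of 0.02. By direction, 35.5% rose beside 16.3% of all tested genes and 6.45% fell beside 19.8%. The list was chosen with earlier results of these data known, so these shares only describe it. The phosphatase gene DUSP5 rose 1.26-fold from 47.5 ± 0.267 to 59.9 ± 1.27 FPKM, and SPRY2, a Sprouty inhibitor of RAS-MAPK signalling, 1.28-fold from 30.6 ± 1.95 to 39.1 ± 1.11 FPKM (limma, adjusted p = 0.000634 and 0.00262). The pseudokinase gene TRIB1 rose 1.45-fold to 3.06 ± 0.0444 FPKM and CBLB, a ubiquitin ligase that marks active receptors, 1.29-fold to 11.2 ± 0.669 FPKM (adjusted p = 0.00259 and 0.00364). ERRFI1, the direct inhibitor of ERBB kinases known as MIG6 and named here after its values were seen, rose 1.17-fold from 19.5 ± 0.516 to 22.7 ± 1.82 FPKM (limma, adjusted p = 0.0288), a call lost in 4 of the 6 fits that left out 1 library (adjusted p up to 0.0882). CAV1, the caveolin gene and the highest of the list, stood at 152 ± 13.3 and 172 ± 10.8 FPKM (adjusted p = 0.0931, limma). The number that rose was 6, 7, 7 and 5 without ANKRD9 replicate 2, ANKRD9 replicate 3, vector replicate 2 and vector replicate 3. The number that fell was 0 without ANKRD9 replicate 1, ANKRD9 replicate 2, vector replicate 1 or vector replicate 3, and 1 without vector replicate 2. Fewer of all tested genes also rose in these fits, and the share in each fit is not given here.

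Of 35 listed genes whose transcription is known to rise after ERK activity in mammalian cells, 26 had a match and 25 were tested. FOSL1, JUNB, IER2, IER3 and EGR2 were among those without a match. The DUSP and Sprouty genes were counted with the feedback and turnover genes above and not here, so the counts do not cover all ERK-responsive genes. The tested genes of this list moved both ways, with 7 higher and 5 lower. This was 48.0% in all beside 36.0% of the background, with a median log2 difference of 0.03. EGR1, an immediate early transcription factor gene, fell 1.66-fold to 39.4 ± 2.41 FPKM (limma, adjusted p = 0.000239). ETV1, of the PEA3 group of ETS factors, fell 1.43-fold from 7.12 ± 0.229 to 4.97 ± 0.0795 FPKM (adjusted p = 0.000740). PLAU, the gene of the protease urokinase, rose 1.48-fold from 10.3 ± 0.383 to 15.3 ± 0.768 FPKM, and the survival gene MCL1 1.29-fold from 30.6 ± 1.16 to 39.6 ± 0.737 FPKM (limma, adjusted p = 0.000485 and 0.000827). CTGF, the highest of the list, stood at 470 ± 18.3 and 466 ± 15.1 FPKM (adjusted p = 0.879, limma). With voom on the recovered reads 11 genes of the list rose. The shares above belong to the main fit, and that of all genes with voom is not given here. The count of 11 is therefore not read as a result about the list.

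**Figure D4:**
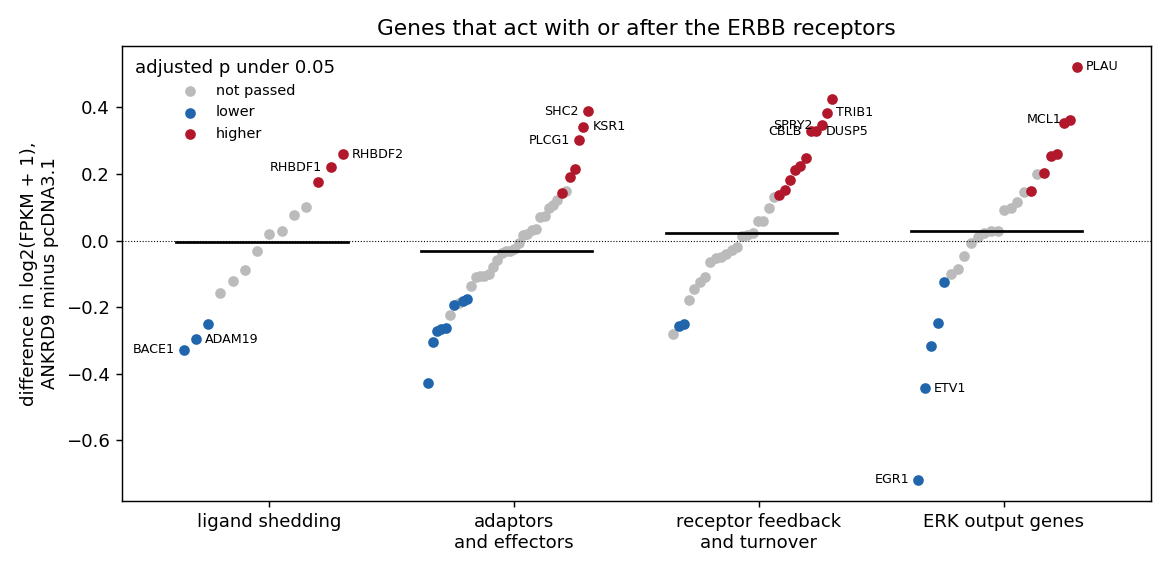
Difference in log2(FPKM + 1), ANKRD9 minus pcDNA3.1 (vertical axis), for the tested genes of the 4 lists, ordered by size within a list; each point is a gene, red for higher, blue for lower and grey for not passed at an adjusted p of 0.05 (limma), black lines are list medians, and the genes of smallest adjusted p that the text describes are named. The medians lie between -0.03 and 0.03 while single genes run from -0.72 for EGR1 to 0.52 for PLAU.

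The levels of marker lists are given beside the groups, and their part in the values of HBEGF, TGFA, EGFR and ERBB2 was not tested. The counts of these lists stand beside 16.3% higher and 19.8% lower, 36.0% in all, among all tested genes, and most lists hold few tested genes. Of 10 tested fibroblast markers 8 fell, a share of 80%, and 1 rose, POSTN. COL3A1 had the smallest adjusted p of those that fell, from 173 ± 9.87 to 86.0 ± 4.52 FPKM. The summed FPKM of 13 epithelial markers ran from 34.1 to 37.4 with ANKRD9 and from 31.5 to 32.8 with the vector. Of these markers 7 were under 1 FPKM, among them CDH1 with a mean of 0.817 FPKM and EPCAM, which stood at 0.999 ± 0.259 with ANKRD9 and 0.455 ± 0.0600 FPKM with the vector, groups that did not overlap. GRHL2 was the highest at 10.5 FPKM, and 2 of 6 tested rose and 1 fell. Schwann cell markers summed to 21.5 to 24.3 and 18.6 to 20.2 FPKM, with SOX10 under 0.1 FPKM on average and PMP22 highest at 15.5 FPKM, and 2 of 3 tested rose. Endothelial markers summed to 22.7 to 22.9 and 18.7 to 20.2 FPKM, with CDH5 and VWF under 1 FPKM and CLDN5 highest at 10.5 FPKM. Of 4 tested 2 rose, CLDN5 from 8.43 ± 0.735 to 12.6 ± 0.744 FPKM and PECAM1 from 4.20 ± 0.292 to 5.44 ± 0.363 FPKM. The 2 that fell were TEK, from 2.21 ± 0.244 to 1.18 ± 0.0772 FPKM, and EGFL7, from 3.37 ± 0.133 to 2.50 ± 0.195 FPKM. Under the filter, CDH5 was lower with ANKRD9 (0.201 against 0.455 FPKM) and KDR higher (0.373 against 0.135 FPKM), both without overlap. Adipocyte markers summed to 30.1 to 30.4 and 28.8 to 29.7 FPKM, LPL the highest at 12.4 FPKM and ADIPOQ at 0.636 FPKM, and 2 of 4 tested rose and 1 fell. Leukocyte markers summed to 64.1 to 70.0 and 53.6 to 64.3 FPKM, ranges that overlapped. CD74 was the highest at 20.9 FPKM, and PTPRC stood at 1.96 FPKM. Of 11 tested leukocyte markers 4 rose, 36.4% beside 16.3% of all tested genes, and none fell, beside 19.8%. The share called in either direction was 36.4% beside 36.0% of all tested genes. Among erythroid markers HBBR, HBE1 and HBZ were at 0 in all libraries, HBBA was the highest at 0.228 FPKM, and the sums ran from 0.0990 to 0.352 and from 0.212 to 0.383 FPKM. Myoblast and muscle markers summed to 2039 to 2270 and 1831 to 2063 FPKM, and of 12 tested 5 rose, among them MYF5, and 2 fell, MYOD1 and PAX7, and ACTC1 was the highest at 636 FPKM.

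Several of these marker counts moved by more than 1.5 times without 1 library. In these fits fewer of all tested genes rose as well. The share of all tested genes that rose or fell in each fit is not given here, so these counts are not read as results about the lists. The number of Schwann cell markers that rose was 0 without ANKRD9 replicate 3 and 1 without ANKRD9 replicate 1 or any one vector library. Without ANKRD9 replicate 3, NGFR had a mean under 1 FPKM and was not tested. It kept its call in the 5 fits that tested it (adjusted p at most 0.0107, limma). Without any one library except vector replicate 3, 1 adipocyte marker rose. Of the epithelial markers 1 rose without ANKRD9 replicate 1, ANKRD9 replicate 3, vector replicate 1 or vector replicate 2, and none fell without vector replicate 2 or any one ANKRD9 library. Of the leukocyte markers 2 rose without ANKRD9 replicate 1, ANKRD9 replicate 2, vector replicate 1 or vector replicate 3, and 1 fell without vector replicate 1. Of the muscle markers 3 rose and 1 fell without ANKRD9 replicate 1 or ANKRD9 replicate 2. Fibroblast markers that fell numbered 6 to 8 in the fits without 1 library.

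Outside these lists, the genes with a symbol whose levels over the 6 libraries were most like those of HBEGF were F3, EMP1 and TMCC1, with a Pearson's r of 1.000, 0.999 and 0.998 on log2(FPKM + 1). Those most like EGFR were BIRC6, FAT1 and XPO4, with an r of 0.998, 0.998 and 0.997. The 6 points fall into the 2 groups and share library and scaling, and 99 genes reached an r over 0.99 with HBEGF and 53 with EGFR, so the names only describe these libraries. F3 stood at 152 ± 1.32 and 97.1 ± 5.83 FPKM and FAT1 at 13.1 ± 0.749 and 16.7 ± 1.73 with ANKRD9 and the vector.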

How the data were processed

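RNA of 6 samples of chicken primary myoblasts was sequenced, 3 per group, from polyadenylated RNA with an NEBNext Ultra kit, per the labels' protocols. The authors deposited FPKM per gene, 1 column per library, with gene lengths and positions, per the file headers. CASAVA and the build GRCg6a (galGal6) stand in the submitters' processing notes. For the aligner, counting program and strand setting: not given in the sources used here.

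Multiplied by gene length, 100% of the FPKM values above 0 were whole multiples of a single step per library (tolerance 0.01), which gave whole reads per gene. The 11685 genes whose mean reached 1 FPKM entered limma 3.58.1 (R 4.3.3) as log2(FPKM + 1), in a model of group alone with a mean trend. Adjustment was by Benjamini-Hochberg over these genes, at a threshold of 0.05. The FPKM + 1 scale understates differences of low genes. Folds are ratios of group means. Alternatives were a pseudocount of 0.1, no filter or a mean of at least 5 FPKM, median-of-ratios and quantile scaling, voom on the recovered reads, the replicate number as a block, and leaving out each library. The procedure was also run on simulated counts with the same spread setting for all genes and far fewer changed genes than were called here. The simulated folds were all larger than those of TGFA and ERBB2, so the run does not bear on those calls. Its outcome is not given here.

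The members and lists were chosen with earlier results of these data known. Named are all members, the other EGF family ligands, ANKRD9, the 4 genes of smallest adjusted p and the highest gene of each pathway list, the highest gene of each marker list and the 3 nearest patterns of HBEGF and of EGFR. A gene taken by this rule is not reported here. Other genes, marker genes included, were named after their values were seen. Listed symbols without a match, MAPK3 and AKT2 among them, were not analysed here. Chromosome names come from gene identifiers shared with NCBI's chicken table (assembly GRCg7b), where at least 90% of a sequence's genes share the name. ERBB3 has no such name, so its position is not given.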

Additional observations from a re-analysis of the deposited data

How the results depend on the processing

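HBEGF and EGFR kept direction and call in all 13 alternatives, with log2 differences of 0.75 to 0.84 and of -0.46 to -0.31. TGFA missed the threshold without a filter (0.33, adjusted p = 0.106, limma), and without 1 library each its difference ran from 0.20 to 0.39. ERBB2 ran from 0.17 to 0.27 without 1 library each. Of the members, 1 to 3 were called higher and 1 lower in those fits. Over all genes, 1255 to 1764 rose without 1 library each, the lowest without ANKRD9 replicate 2. The scalings left the median log2 difference of all genes between -0.01 and 0.02 and turned no member that was called. BTC passed in none of its 12 alternatives, with differences of -0.12 to 0.14, and the filter at 5 FPKM left it out.

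Deviations from the group means correlated at -0.196, 0.0336 and -0.0797 across genes for libraries of the same number, 1, 2 and 3. For unlike numbers the values ran from -0.105 to 0.160. Same-numbered libraries were thus no more alike than others, but with 3 libraries per group this cannot show that they were unpaired. With the replicate number as a block, 1420 genes rose and 1693 fell, and ERBB2 kept its difference of 0.22 at an adjusted p of 0.0527 (limma). Of the feedback and turnover genes 7 rose and 1 fell. In that fit 1 gene of ligand release rose. Without a filter no feedback or turnover gene fell. The fit without a filter called 17.0% of its genes in either direction, beside 36.0% in the main fit, so that count is not read as a result about these genes. Depth limits AREG, EREG, NRG1 and ERBB4, none with more than 78 reads in a library.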

Other observations

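Within 200 kb of the EPGN, EREG and AREG genes on chromosome 4, a window chosen after the values were seen, several neighbouring genes stood far above EREG and AREG. USO1, downstream of AREG and the gene of a vesicle tethering factor, had means of 56.8 with ANKRD9 and 51.5 FPKM with the vector. G3BP2, the gene of a stress granule protein, had 32.2 and 31.6 FPKM, and BMP2K 18.7 and 19.6 FPKM. VEGFC, on the other side, had 12.1 and 10.7 FPKM.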
